A study of Mus musculus with 6 samples.

Results

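CC chemokine ligands are small secreted proteins that draw leukocytes towards the cells that release them. The genes described here were Ccl2, Ccl3, Ccl4, Ccl5, Ccl6, Ccl7, Ccl8, Ccl9, Ccl11 and Ccl20, measured in primary fibroblast cultures of mouse embryos that carried a deletion of exon 2 of Cas on both, 1 or neither allele. Every probe set annotated to one of these 10 symbols alone was taken, which gave 10 of 18193 named genes and 12 of the 45101 probe sets on each array. Ccl6 and Ccl9 had 2 probe sets each and the other genes 1 each.

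Cas (p130Cas, encoded by Bcar1) is an adaptor that docks signalling proteins where integrins hold a cell to its matrix. The 6 Affymetrix arrays came from 2 embryos of each genotype, namely homozygotes (Cas exon 2∆/∆), heterozygotes (Cas exon 2+/∆) and wild type (Cas exon 2+/+). All embryos were taken at 12.5 days post coitum from crosses between heterozygotes, and the strain label, B6, was given for all arrays except wild type 1. Heads and inner organs had been set aside for genotyping, the rest of each embryo was cultured in medium with serum, and no agent was added per the labels. Each array stands for the culture of 1 embryo, so the p-values measure the spread between embryos and cultures, and 2 arrays per genotype limit the precision. The Bcar1 probe sets did not mark the genotypes: the brighter lay at 8.08 and 8.43 in homozygotes, 8.19 and 8.32 in heterozygotes and 9.37 and 8.42 in wild type (log2 intensity). Whether their probes fall in the deleted exon is not stated in the labels or tables, so they are no check of the genotype.

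CC chemokines act through G protein-coupled receptors, and most of them are made on demand. Stimulated fibroblasts are a known source of the monocyte chemoattractants Ccl2 and Ccl7, whose transcription is induced by growth factors in serum and by interleukin-1 and tumour necrosis factor through NF-kB. Macrophages make Ccl3, Ccl4, Ccl6 and Ccl9, and Ccl20 is known from epithelia and inflamed tissue. The fibroblast cultures expressed markers of both cell types. Of 11 fibroblast markers, 10 had a probe set above the intensity filter, and of 22 macrophage markers 19 did, whereas 0 of 7 mast cell, 0 of 8 lymphocyte, 0 of 6 neutrophil and 2 of 6 endothelial markers did.

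The members sit in 2 groups on mouse chromosome 11, with Ccl20 apart on chromosome 1. In the order of the GRCm38.p6 gene table, Ccl2, Ccl7, Ccl11, Ccl12 and Ccl8 follow each other with 0 other protein-coding genes between them, and after 26 further genes come Ccl5, Ccl9, Ccl6, Ccl3 and Ccl4, again without interruption. The first group holds the monocyte chemoattractant proteins and eotaxin, and the second the macrophage inflammatory proteins and Ccl5 (RANTES). The promoter table of RefSeq (GRCm38.p6) matched 5 of the 10 genes, Ccl3, Ccl6, Ccl8, Ccl9 and Ccl20.

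Of these, the 250 bases before the annotated start of Ccl6 and Ccl9 are shown because these neighbours had the widest gaps between the homozygote arrays among the members, and that of Ccl8 because it is the one gene of the first group that the table matched. All are written 5′ to 3′ on the strand of the gene. Capitals mark matches on either strand to AGGAAG (a core bound by ETS factors such as PU.1), to TGANTCA (AP-1) or to the NF-kB consensus, and no 2 matches overlap.
Ccl6: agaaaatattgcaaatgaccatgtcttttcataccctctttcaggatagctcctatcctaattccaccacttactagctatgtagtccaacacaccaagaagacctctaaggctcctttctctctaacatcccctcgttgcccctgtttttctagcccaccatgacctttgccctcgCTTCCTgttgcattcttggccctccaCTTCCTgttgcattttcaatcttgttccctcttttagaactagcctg
Ccl9: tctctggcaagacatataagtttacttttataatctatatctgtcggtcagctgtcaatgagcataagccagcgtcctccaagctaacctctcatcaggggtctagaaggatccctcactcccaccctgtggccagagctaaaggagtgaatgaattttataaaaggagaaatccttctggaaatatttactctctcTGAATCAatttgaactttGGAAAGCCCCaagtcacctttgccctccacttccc
Ccl8: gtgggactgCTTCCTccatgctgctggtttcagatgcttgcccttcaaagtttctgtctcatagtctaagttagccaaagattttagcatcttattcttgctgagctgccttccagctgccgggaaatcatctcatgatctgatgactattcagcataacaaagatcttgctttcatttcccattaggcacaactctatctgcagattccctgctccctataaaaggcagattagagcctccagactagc

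These stretches are chr11:83593088-83593337 (minus strand) for Ccl6, chr11:83578637-83578886 (minus strand) for Ccl9 and chr11:82114935-82115184 (plus strand) for Ccl8. Ccl6 held 2 matches to AGGAAG, both nearer the start than the match in Ccl8, and Ccl8 held 1. Ccl9 held 1 match to TGANTCA and 1 to the NF-kB consensus. Over all 32851 promoters of the table, AGGAAG was found in 29.5%, TGANTCA in 6.75% and the NF-kB consensus in 7.25% of windows of the same length. Another motif, TTCNNNGAA (STAT factors), was found in 7.02% of all promoters and in 0 of the 5 member promoters. Ccl20 had 2 matches to AGGAAG and 1 to the NF-kB consensus, and Ccl3 had no match to any of the 4 motifs. These matches describe the letters only.

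Levels are given as log2(intensity + 1.78) after quantile normalization, and differences are on the same scale, so changes of dim probe sets come out too small. The members were read from a limma fit over the 22519 probe sets in the upper 50% by mean level (a mean of at least 4.57). Of the members, 10 probe sets of 8 genes passed this filter, and those of Ccl5 and Ccl11 did not. Both Ccl6 probe sets passed through homozygote 1 alone, since their means over the other 5 arrays were 4.16 and 4.17.

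**Figure D1:**
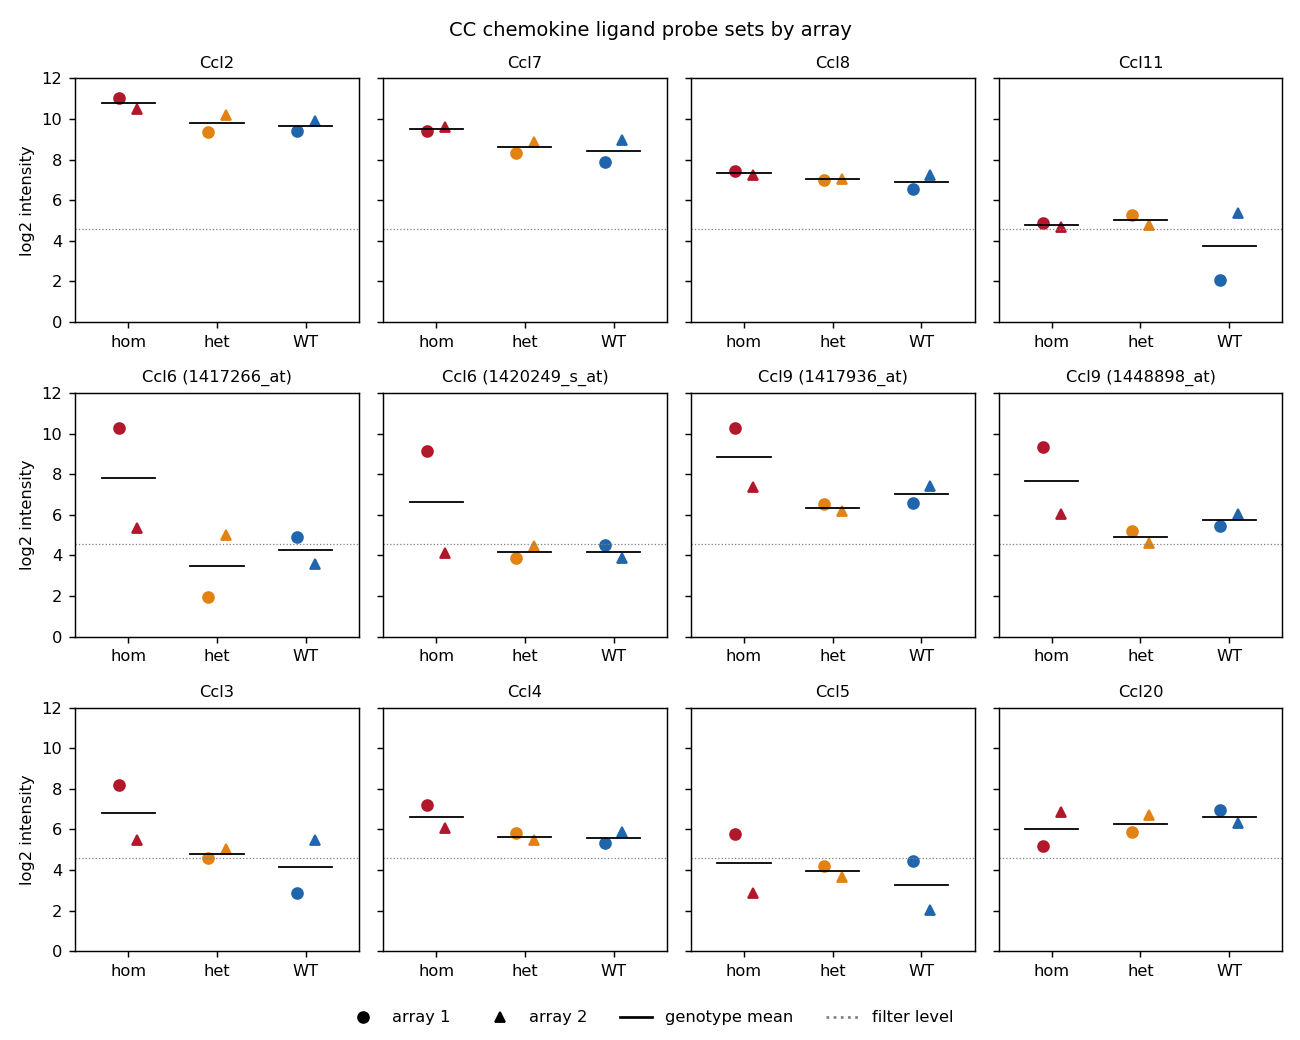
Log2 intensity (vertical axis) of each CC chemokine ligand probe set on the 6 arrays, with homozygotes (hom), heterozygotes (het) and wild type (WT) from left to right. Circles and triangles are array 1 and array 2 of a genotype, black lines are the genotype means, and the dotted line is the filter level of 4.57. The homozygote arrays lie together and above the others for Ccl2 and Ccl7, and far apart for Ccl6, Ccl9 and Ccl3.

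Homozygous cultures had the highest level of most of these chemokines, in 2 patterns. Ccl2 and Ccl7 were highest in both homozygote arrays, with a mean difference of about 2-fold from the other genotypes (1.05 and 1.00 on the log2 scale). Ccl6, Ccl9 and Ccl3 were high in homozygote 1 and near the other genotypes in homozygote 2. No difference passed the threshold of a limma adjusted p under 0.05 in any comparison.

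Ccl2, the main attractant of monocytes, lay at 11.02 and 10.51 in homozygotes, 9.39 and 10.18 in heterozygotes and 9.43 and 9.88 in wild type. Both homozygote arrays thus stood above all others, while heterozygotes and wild type overlapped. As deposited, its intensity was 1874 and 1458 in homozygotes, 644 and 1278 in heterozygotes and 742 and 870 in wild type. Homozygotes exceeded the mean of the other genotypes by 1.05 (SE 0.31, 2.07-fold, limma adjusted p = 1). Its p-value ranked 122 among the 22519 tested probe sets. Without homozygote 1 the difference was 0.79 (SE 0.40).

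Ccl7, a second monocyte chemoattractant encoded next to Ccl2, lay at 9.42 and 9.62 in homozygotes, 8.33 and 8.89 in heterozygotes and 7.89 and 8.96 in wild type. The homozygote arrays were again the highest pair and differed from each other by 0.20, less than the arrays of the other genotypes did (0.56 in heterozygotes and 1.07 in wild type). Homozygotes stood 1.00 above the other genotypes (SE 0.35, 2.00-fold, limma adjusted p = 1, rank 270). Unlike Ccl2, Ccl7 was higher in homozygote 2 than in homozygote 1.

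Ccl8, also of the first group and an attractant of monocytes and other leukocytes, lay at 7.46 and 7.26 in homozygotes, 7.01 and 7.07 in heterozygotes and 6.53 and 7.24 in wild type. The order was the same, but homozygote 2 exceeded wild type 2 by only 0.017, and without normalization between arrays heterozygote 2 lay above homozygote 2. The difference was 0.40 (SE 0.25, 95% interval -0.22 to 1.01, limma adjusted p = 1). Ccl11 (eotaxin, an attractant of eosinophils) was below the filter, at 4.88 and 4.69 in homozygotes, 5.25 and 4.78 in heterozygotes and 2.09 and 5.36 in wild type. Wild type 1 was the single low array, and in the fit without the filter the difference was 0.41 (SE 0.91). Their neighbour Ccl12, a monocyte chemoattractant of the mouse that is not among the 10 genes, lay at 8.10 and 5.82 in homozygotes, 1.22 and 5.83 in heterozygotes and 2.14 and 6.40 in wild type, so the genotypes overlapped (difference 3.06, SE 1.64).

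The second group was led by homozygote 1. Ccl6, known as C10 and made by macrophages of the mouse, lay with its first probe set at 10.28 and 5.35 in homozygotes, 1.94 and 5.02 in heterozygotes and 4.92 and 3.59 in wild type. Its other probe set, of a type whose probes can match several transcripts, lay at 9.14 and 4.11 in homozygotes, 3.87 and 4.47 in heterozygotes and 4.52 and 3.88 in wild type. One array of 6 was thus high with both probe sets, and homozygote 2 lay within or just above the range of the other genotypes. The deposited intensity of the first probe set was 1148 and 35.2 in homozygotes, 2.23 and 34.5 in heterozygotes and 27.6 and 9.70 in wild type. The difference of homozygotes was 3.95 (SE 1.47) with the first and 2.44 (SE 1.26) with the other probe set (limma adjusted p = 1 for both). Without homozygote 1 these differences were 1.48 (SE 1.20) and -0.0748 (SE 0.39).

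Ccl9, a macrophage inflammatory protein and the neighbour of Ccl6, lay with its first probe set at 10.30 and 7.39 in homozygotes, 6.51 and 6.20 in heterozygotes and 6.59 and 7.42 in wild type. Its other probe set gave 9.34 and 6.02 in homozygotes, 5.23 and 4.61 in heterozygotes and 5.43 and 6.06 in wild type. Homozygote 2 lay above both heterozygotes but level with wild type 2, by both probe sets. The differences were 2.16 (SE 0.76) and 2.35 (SE 0.86), each with limma adjusted p = 1, and 0.71 and 0.69 without homozygote 1.

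Ccl3 and Ccl4 are the macrophage inflammatory proteins 1-alpha and 1-beta, which attract monocytes and T cells. Ccl3 lay at 8.19 and 5.46 in homozygotes, 4.60 and 5.02 in heterozygotes and 2.86 and 5.48 in wild type, with homozygote 1 high and wild type 1 low (difference 2.33, SE 0.95, limma adjusted p = 1, and 0.97 without homozygote 1). Ccl4 lay at 7.18 and 6.07 in homozygotes, 5.83 and 5.46 in heterozygotes and 5.31 and 5.89 in wild type. Here both homozygote arrays were above the others, homozygote 2 by 0.18 over wild type 2 (difference 1.00, SE 0.37, limma adjusted p = 1, and 0.45 without homozygote 1). Ccl5, which attracts T cells and monocytes, was below the filter, at 5.76 and 2.89 in homozygotes, 4.22 and 3.67 in heterozygotes and 4.46 and 2.04 in wild type. Homozygote 1 was again the highest array, and the difference in the fit without the filter was 0.73 (SE 1.03).

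Ccl20, the ligand of Ccr6, ran the other way. It lay at 5.19 and 6.87 in homozygotes, 5.88 and 6.70 in heterozygotes and 6.95 and 6.32 in wild type. Homozygote 1 was the lowest of the 6 arrays, homozygote 2 the second highest, and all genotypes overlapped. The difference was -0.44 (SE 0.51, 95% interval -1.68 to 0.81, limma adjusted p = 1), and 0.41 without homozygote 1.

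In the comparison of homozygotes with the other genotypes together, limma called 0 of 10 member probe sets, against 0% of all tested probe sets. At an unadjusted limma p under 0.05, 7 of the 10 were higher in homozygotes, against 1.22% of all tested probe sets, and 0 were lower, against 1.27%. The 7 were those of Ccl2, Ccl3, Ccl4, Ccl7 and Ccl9, the last with both, and the first of Ccl6. Without Ccl6, which the filter admitted through homozygote 1, 6 of 8 were higher. The median difference over the 10 was 1.61, against -0.0039 over all tested probe sets, and it was 1.03 over the 8 left without Ccl6. Both homozygote arrays lay above the other 4 for 5 member probe sets, those of Ccl2, Ccl4, Ccl7, Ccl8 and the first of Ccl6, against 3.27% of all tested probe sets (4 of 8 without Ccl6), and below them for 0, against 4.02%. Wild type 1 was the lowest of the 6 arrays for 4 (Ccl3, Ccl4, Ccl7 and Ccl8), against 24.1%, and homozygote 1 the highest for 6 of the 8 without Ccl6, against 18.7%. The count with the homozygote arrays above all others, 5 of 10 on the 6 arrays, was taken again with 1 array left out. Without homozygote 2 it was 9, where homozygote 1 alone had to exceed the others (19.8% of all tested probe sets). Both Ccl6 probe sets, which the filter admitted through homozygote 1, were among these 9. Without homozygote 1 the count was 5 (12.8%), with the first Ccl6 probe set among them. Without wild type 2 it was 8 (5.12%), again with the first Ccl6 probe set.

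Set against wild type alone, homozygotes had 0 called member probe sets (0% of all tested) and 4 with an unadjusted limma p under 0.05, all higher (1.96% of all tested), with 0 lower (1.84%). These were Ccl2 (1.11, SE 0.36), Ccl7 (1.10, SE 0.40), Ccl4 (1.03, SE 0.42) and Ccl3 (2.65, SE 1.09), each with limma adjusted p = 0.973. With 1 array left out, Ccl7 came to 0.56 (without wild type 1), Ccl4 to 0.47 (without homozygote 1) and Ccl3 to 1.29 (without homozygote 1) or 1.34 (without wild type 1). Set against heterozygotes alone, 0 were called (0% of all tested) and 4 had an unadjusted limma p under 0.05, all higher (1.12% of all tested), with 0 lower (1.05%). Without Ccl6, which the filter admitted through homozygote 1, 3 of 8 were higher. The 4 were Ccl2 (0.99, SE 0.36), the first probe set of Ccl6 (4.34, SE 1.69) and both of Ccl9 (2.49, SE 0.88, and 2.76, SE 0.99), each with limma adjusted p = 1. Without homozygote 1 they were 1.87 for Ccl6 and 1.03 and 1.11 for Ccl9, and without heterozygote 1 they were 0.59 for Ccl2 and 2.80 for Ccl6. These comparisons share the homozygote arrays.

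Heterozygotes and wild type had no shared direction of difference over the members. Limma called 0 of 10 member probe sets (0% of all tested), and 0 were higher at an unadjusted limma p under 0.05 (2.85% of all tested) and 0 lower (2.42%). The median difference was 0.0093, with 5 probe sets positive and 5 negative. For Ccl2 the difference was 0.13 (SE 0.36, 95% interval -0.74 to 0.99) and for Ccl7 0.19 (SE 0.40, 95% interval -0.78 to 1.16). These intervals reach about 2-fold upwards and less than 2-fold downwards. In 0 of the 10 did both heterozygote arrays exceed both wild-type arrays, against 17.9% of all tested probe sets. In 2 of the 10, those of Ccl9, both heterozygote arrays lay below both wild-type arrays (differences -0.65, SE 0.88, and -0.82, SE 0.99), against 19.3%.

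**Figure D2:**
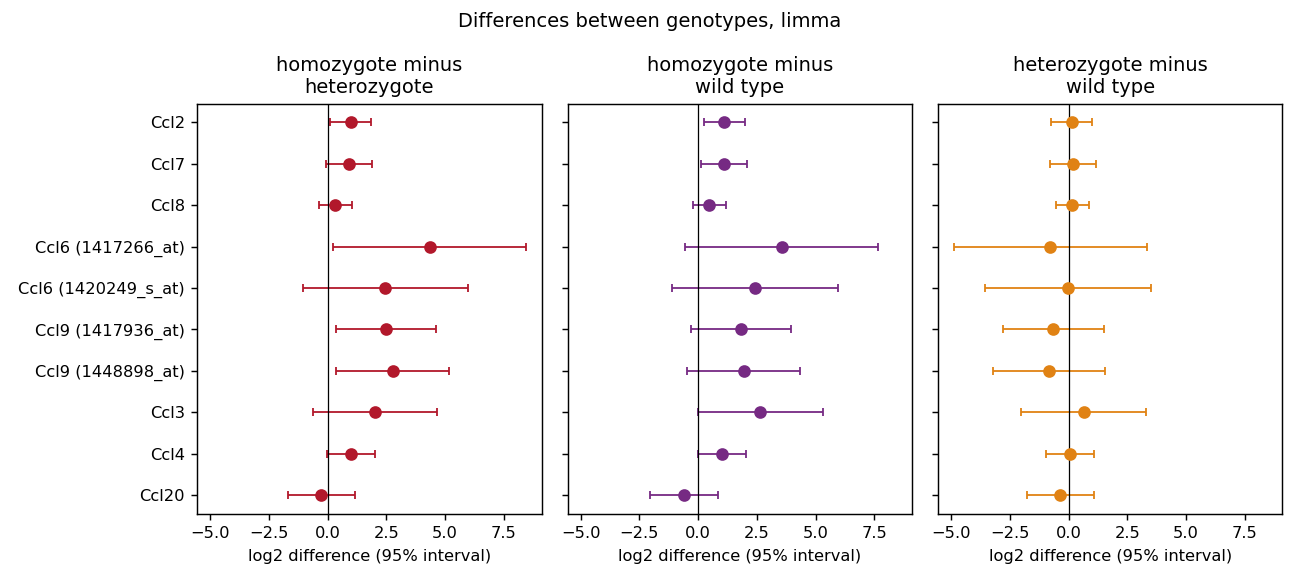
Log2 differences (horizontal axis) between genotypes for the 10 tested CC chemokine probe sets, from limma, with bars for the 95% interval and the first probe set of Ccl6 and Ccl9 above the other. Homozygotes minus heterozygotes and homozygotes minus wild type are positive for every gene except Ccl20, with wide intervals for Ccl6, Ccl9 and Ccl3, and heterozygotes minus wild type scatter around 0.

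The gap between the homozygote cultures was wider for some of these genes than for nearly all others on the array. Homozygote 1 exceeded homozygote 2 by 4.93 and 5.03 for the probe sets of Ccl6, which were dim in homozygote 2 and passed the filter through homozygote 1, so their rank is not given. The gap was 3.31 and 2.91 for Ccl9 (ranks 15 and 29 of 22519) and 2.73 for Ccl3 (rank 41). Ccl3 was dim in homozygote 2 as well (deposited intensity 38.1), and its mean without homozygote 1, 4.69, lay just above the filter level of 4.57. Only 0.626% of tested probe sets had homozygote 1 more than 2 log2 units above homozygote 2. By contrast the gap was 0.51 for Ccl2, 0.20 for Ccl8 and -0.20 for Ccl7, close to the median absolute gap of all tested probe sets (0.32). Ccl4 had a gap of 1.12, and Ccl20 had -1.68, so that 1.52% of probe sets had a larger gap of either sign than Ccl20.

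**Figure D3:**
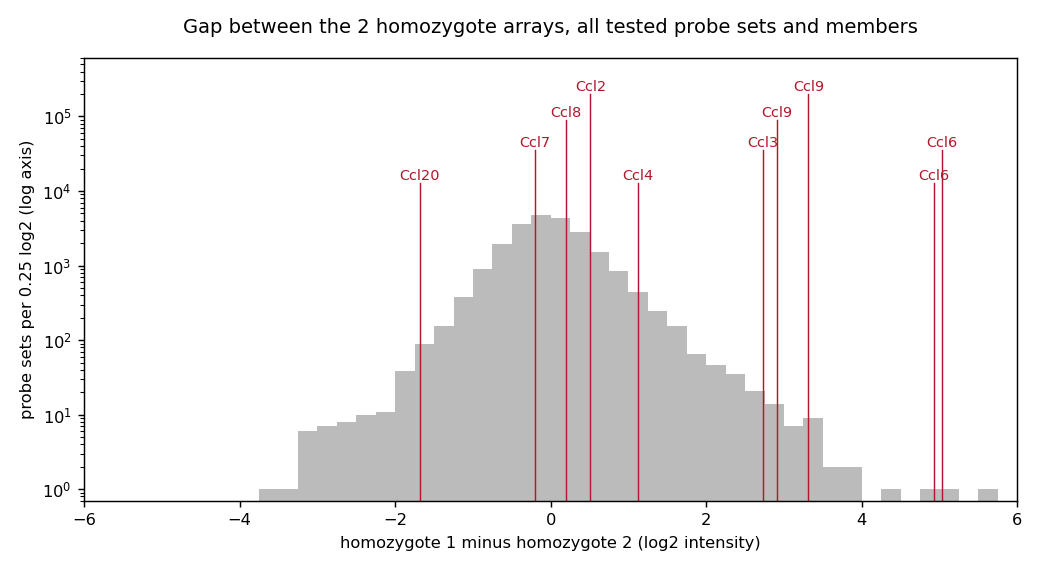
Difference between homozygote 1 and homozygote 2 (horizontal axis, log2 intensity) over all 22519 tested probe sets, as grey bars of probe sets per 0.25 log2 units on a log axis, with red lines at the CC chemokine probe sets. Ccl6, Ccl9 and Ccl3 lie in the right tail beyond 2.7, while Ccl7, Ccl8 and Ccl2 lie near the centre.

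The median of the macrophage markers was also highest in homozygote 1. Relative to each gene's mean of the 6 arrays, the median of the 19 markers was 1.23 and 0.20 in homozygotes, -0.28 and -0.45 in heterozygotes and -1.10 and 0.28 in wild type. Their summed intensity was 19893 and 9048 in homozygotes, 6776 and 6024 in heterozygotes and 3654 and 8825 in wild type. Homozygote 1 exceeded homozygote 2 by a median of 0.88 over these markers, with gaps from -0.29 for Fcgr2b to 2.57 for the mannose receptor Mrc1. Of the markers below the filter, Aif1 (2.05 and 4.26) and Cx3cr1 (3.40 and 5.93) were lower in homozygote 1 than in homozygote 2. Itgam (5.54 and 4.82) was higher. The gaps of Ccl9 (3.31 and 2.91) and Ccl3 (2.73) were wider than that of any tested marker. Among interferon response genes the widest gap was 2.91, for Oasl2. All 19 tested macrophage markers were higher in homozygotes than in the other genotypes together, against 49.3% of all tested probe sets, with a median difference of 1.24. Both homozygote arrays lay above the other 4 for 7 of the 19, against 3.27% of all tested probe sets. Limma called 0 of the 19 (0% of all tested), and 10 were higher at an unadjusted limma p under 0.05 (1.22%). The 5 with the smallest p-values were Cd53 (1.24, SE 0.41), the leukocyte phosphatase Ptprc (1.33, SE 0.48), the lysosomal protein Cd68 (1.33, SE 0.48) and the receptor adaptors Tyrobp (1.46, SE 0.54) and Fcer1g (1.30, SE 0.51), each with limma adjusted p = 1. In bulk RNA, more macrophages and more chemokine RNA per cell cannot be told apart, and the part of the markers in the chemokine differences was not tested.

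Homozygote 2 and wild type 2 had nearly the same marker level (0.20 and 0.28), and between these arrays the members differed from gene to gene. Homozygote 2 was higher by 0.63 for Ccl2, 0.66 for Ccl7 and 0.55 for Ccl20. Larger positive differences were found in 4.92%, 4.46% and 6.39% of tested probe sets, in that order, with negative differences not counted. Of the dim genes below the filter, Ccl5 was higher by 0.85 and Ccl11 differed by -0.68. It was higher by 1.76 for the first probe set of Ccl6, which was dim on both arrays, but by 0.23 for the other. For Ccl9 (-0.033 and -0.032), Ccl3 (-0.025), Ccl8 (0.017) and Ccl4 (0.18) the arrays were close. These are single arrays, so the differences have no replicate check.

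**Figure D4:**
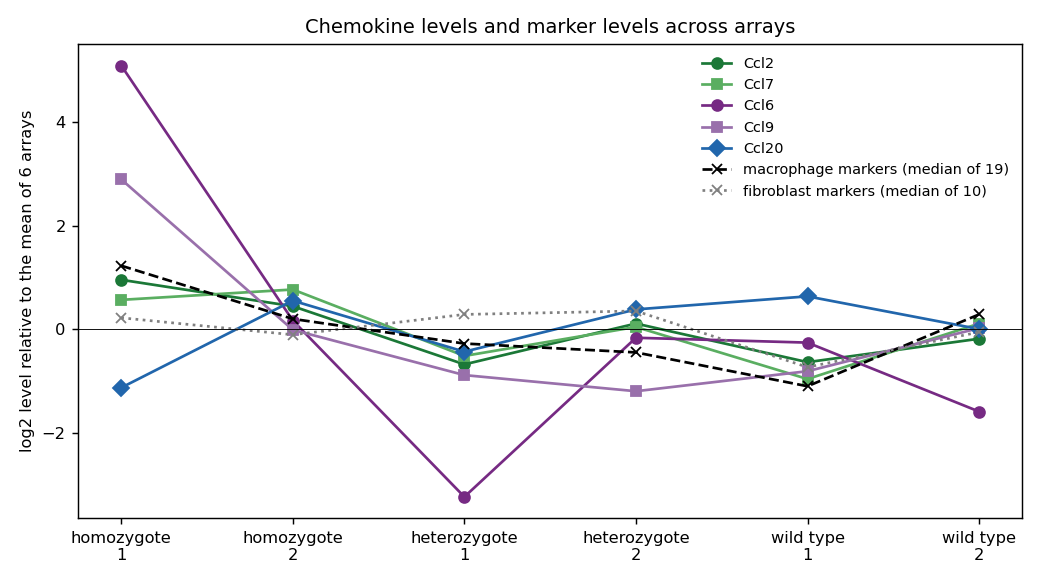
Log2 level of 5 CC chemokines, relative to their own mean of the 6 arrays, on each array, with the median of 19 macrophage markers (dashed) and of 10 fibroblast markers (dotted). Ccl6 and Ccl9 peak in homozygote 1 above the macrophage markers, Ccl2 and Ccl7 are highest in both homozygotes, and Ccl20 is lowest in homozygote 1.

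The arrays also differed in fibroblast markers and in sex-linked genes. Of 10 fibroblast markers, 6 were higher and 4 lower in homozygotes, with a median difference of 0.075, 0 called and 0 at an unadjusted limma p under 0.05. Their median level was 0.22 and -0.11 in homozygotes, 0.28 and 0.35 in heterozygotes and -0.74 and -0.057 in wild type, with wild type 1 lowest. The matrix proteoglycan Lum differed by 1.50 (SE 0.87), the growth factor receptors Pdgfra by 1.01 (SE 0.69) and Pdgfrb by 0.15 (SE 0.28), the collagen gene Col3a1 by 0.30 (SE 0.41) and Thy1 by -0.19 (SE 0.31). The tested endothelial markers Kdr (0.40, SE 0.41) and Tek (0.26, SE 0.60) had 0 calls and 0 at an unadjusted limma p under 0.05. Xist, the RNA of the inactive X chromosome, was low in both homozygotes (3.70 and 5.31), high in both heterozygotes (10.27 and 10.29), and high in wild type 1 (8.82) but low in wild type 2 (4.23). The mean of 3 Y-linked genes, Eif2s3y, Kdm5d and Uty, ran the other way, at 7.58 and 7.55 in homozygotes, 1.83 and 1.66 in heterozygotes and 2.95 and 7.16 in wild type. Genotype and embryo sex therefore cannot be told apart between homozygotes and heterozygotes. With a covariate made from Xist and the Y-linked genes, homozygotes stood 0.58 (SE 0.53) above the other genotypes for Ccl2 and 0.094 (SE 0.47) for Ccl7, and it was 0.94 (SE 1.29) and 1.24 (SE 1.50) for Ccl9. For the first probe set of Ccl6 it was 4.38 (SE 2.73), and for Ccl3 it turned to -0.43 (SE 1.08). The covariate was a continuous score, at -3.88 and -2.24 in homozygotes, 8.44 and 8.62 in heterozygotes and 5.87 and -2.93 in wild type. Only wild type held cultures of both sexes, so its arrays had the widest gap in the score. That fit takes its sex effect from the gaps within genotypes, so the gap between the homozygote arrays also enters it.

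Receptors for these ligands were dim. Of 14 CC receptor genes, 13 had a probe set, and 3 passed the filter, with 0 called in the comparison of homozygotes with the other genotypes (0 also at an unadjusted limma p under 0.05). Ccr1, a receptor of Ccl3 and Ccl9, lay at 6.48 and 4.05 in homozygotes, 3.75 and 4.68 in heterozygotes and 5.08 and 4.95 in wild type, so homozygote 1 was again the highest array. The atypical receptors Ackr1 (-0.11, SE 0.25) and Ackr4 (0.076, SE 0.28), which bind chemokines without signalling for migration, differed little between homozygotes and the other genotypes. Of 11 other CC ligands, 3 were tested and 0 called (0 also at an unadjusted limma p under 0.05), namely Ccl12, Ccl25 (0.33, SE 0.24) and Ccl27a (-0.25, SE 0.23).

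Genes of the pathways that induce these chemokines did not share one direction. Of 28 inducers, receptors and NF-kB pathway genes, 22 were tested, 12 were higher and 10 lower in homozygotes, 0 were called (0 also at an unadjusted limma p under 0.05), and the median difference was 0.046. The pattern recognition receptor Tlr2 differed by 0.42 (SE 0.32), the adhesion molecule Icam1 by 0.36 (SE 0.32) and the NF-kB inhibitor Nfkbia, itself an NF-kB target, by 0.25 (SE 0.29). The interleukin-1 receptor Il1r1 (0.77, SE 0.69) lay at 8.26 and 6.31 in homozygotes, 7.36 and 7.67 in heterozygotes and 4.56 and 6.46 in wild type, and the NF-kB subunit gene Nfkb2 differed by -0.31 (SE 0.29). Interferon response genes, by contrast, were higher in homozygotes for 13 of 13 tested, against 49.3% of all tested probe sets, with a median of 0.99. Both homozygote arrays lay above the other 4 for 3 of the 13 (3.27% of all tested). Limma called 0 (0% of all tested), and 3 were higher at an unadjusted limma p under 0.05 (1.22%). The median level of the 13 was 1.16 and -0.065 in homozygotes, -0.17 and -0.29 in heterozygotes and -0.73 and 0.087 in wild type, which put homozygote 1 highest and wild type 1 lowest. Among them, Oas2 differed by 1.10 (SE 0.28), Rsad2 by 1.65 (SE 0.45), Ifih1 by 0.99 (SE 0.34), Usp18 by 1.30 (SE 0.57) and Ddx58 by 0.58 (SE 0.28).

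Across the 6 arrays, likeness between members was not limited to chromosomal neighbours. As a description over 6 arrays of 3 genotypes, Pearson's r was 0.88 between Ccl2 and Ccl7, 0.90 between Ccl7 and Ccl8, 0.96 between Ccl4 and the first probe set of Ccl9, and 0.86 between the first probe sets of Ccl6 and Ccl9. Between the chromosomal groups it ran from 0.385 for Ccl7 and the other probe set of Ccl6 to 0.926 for Ccl3 and Ccl8, with 0.87 for Ccl2 and Ccl3 and 0.85 for Ccl2 and the first probe set of Ccl6, so values across the groups reached those within them. Ccl20 was negatively related to all others (-0.27 to -0.83). The genes most like Ccl9 were the scavenger receptor Msr1 (r = 0.99), properdin or Cfp (0.99) and the tetraspanin Cd53 (0.99) for the first probe set, and the complement receptor C3ar1 (0.99), galectin-3 or Lgals3 (0.99) and Msr1 (0.98) for the other. For Ccl2 they were Zup1 (r = 0.999), the fatty acid desaturase Scd1 (0.99) and Tmed8 (0.99), and for Ccl7 the glypican Gpc3 (0.99), the Fc receptor Fcgr2b (0.99) and Narf (0.99). These genes were picked as the top 3 of 11372 over 6 arrays, so high values follow in part from the pick. In all, 78 genes had r above 0.9 with Ccl2 and 108 with the first probe set of Ccl9.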

How the data were processed

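Per the labels' protocols, 2 µg of total RNA per culture was extracted with Trizol and hybridized as biotinylated cRNA to Affymetrix arrays. The deposited values are linear probe set intensities made by the authors, and the probe summary, scaling and software are not stated in the labels. Array medians spanned 0.29 log2 units, so log2(intensity + 1.78), with the 10th percentile as pseudocount, was quantile normalized. The 64 control probe sets were left out and the upper 50% of the other 45037 were tested (22519). Limma 3.58.1 in R 4.3.3 fitted a mean per genotype over all 6 arrays (3 residual and 3.28 prior degrees of freedom), with Benjamini-Hochberg adjustment over all tested probe sets in each of 4 comparisons. The fitting code was tested on simulated data.

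Probe sets were named from the platform annotation, with symbols updated by Entrez identifier: 34945 had 1 symbol, 932 several and 9160 none. A list was summarised by the brightest probe set of each gene that passed the filter. All 10 members were named, with the 5 smallest p-values of each other list, Cd68, Csf1r and Ptprc, and the 3 genes most like each member probe set. Mrc1, Fcgr2b and Oasl2, at the ends of the gap ranges, and the macrophage markers below the filter were named as well. The members, lists and motifs were chosen with earlier results of these data known. Alternatives were the scaling, pseudocounts of 1 and 16, no filter, an intensity trend, each array left out, a replicate block, a covariate for embryo sex and averaged probe sets.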

Additional observations from a re-analysis of the deposited data

How the results depend on the processing

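The 10 tested members gave 0 calls in each of the 4 comparisons under all 14 alternatives. Counts of all probe sets called, 0 in each comparison, lay between 0 and 2 with 1 array left out (homozygotes against the other genotypes together), 0 and 2 (against heterozygotes) and 0 and 1 (heterozygotes against wild type), and the covariate for embryo sex gave 1 in the last. The count of member probe sets with both homozygote arrays on top, chosen after seeing the data, was 5, between 5 and 9 with 1 array left out, 5 without normalization (with Ccl9 in place of Ccl8) and 7 with arrays shifted to a common median. Ccl6, which the filter admitted through homozygote 1, is included in each of these counts. The gaps between replicates 1 and 2 correlated between genotypes at -0.14, -0.14 and -0.36. With 1 gap per genotype, these values cannot decide whether same-numbered arrays shared a litter or a preparation. The replicate block called 0 probe sets in each comparison, with a difference of 1.05 (SE 0.33) for Ccl2.

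Direction changed in 31 of the recomputed member differences, none of them called. With the covariate for embryo sex, homozygotes minus the other genotypes together turned for Ccl20 (0.42), Ccl3 (-0.43) and Ccl8 (-0.26), homozygotes minus heterozygotes for Ccl20 (0.96), Ccl3 (-1.96), Ccl4 (-0.0243), Ccl7 (-0.40) and Ccl8 (-0.63), and heterozygotes minus wild type for Ccl9 (0.42 and 0.15) and the second Ccl6 probe set (0.19, and 0.13 without normalization). With 1 array left out, Ccl20 ranged from -1.28 to 0.41 (homozygotes against both), -1.45 to 0.23 (against wild type) and -1.10 to 0.58 (against heterozygotes), and the second Ccl6 probe set from -0.0748 to 4.96, -0.088 to 4.94 and -0.0615 to 4.97 in the same order. Heterozygotes minus wild type ranged from -0.27 to 0.52 for Ccl2, -0.75 to 0.064 for Ccl20, -0.67 to 1.95 for Ccl3, -0.24 to 0.33 for Ccl4, -2.32 to 0.76 and -0.35 to 0.29 for Ccl6, -0.34 to 0.73 for Ccl7 and -0.20 to 0.51 for Ccl8. The counts without Ccl6 and the count of heterozygotes below wild type were added after seeing the data. The causes were not tested. Dim probe sets limit Ccl5, Ccl6 and Ccl11, and also Ccl3 on the arrays other than homozygote 1.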

Other observations

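By Pearson's r over the 6 arrays, the 3 genes most like each of the other members were Gpnmb (r = 0.999), C3ar1 (0.991) and Rnf130 (0.986) for Ccl4, and Tnnt2 (0.998), Ubtf (0.993) and the lectin receptor Clec4n (0.993) for Ccl3. For Ccl8 they were Sfxn5 (0.998), the proton channel Hvcn1 (0.995) and Yy1 (0.995), and for Ccl20 AW209491 (0.996), Rnf11 (0.994) and Dynlt3 (0.994). For Ccl6 the probe sets named different genes, Dnajc10 (0.993), Herc6 (0.990) and Tnrc6a (0.989) with the first and Tbce (0.993), Npl (0.993) and Pigo (0.983) with the other. Each r covers 6 arrays and is a description. Csf1r, the receptor that macrophages need for survival, lay at 9.47 and 8.99 in homozygotes, 8.21 and 7.77 in heterozygotes and 7.20 and 9.06 in wild type, so wild type 2 stood above homozygote 2 (difference 1.17, SE 0.51, limma adjusted p = 1).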
